A study of Mus musculus with 8 samples.

Results

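Prdm16 encodes a PR-domain zinc finger transcription factor. It is known for its expression in the radial glia of the developing forebrain, where it takes part in the maintenance and fate of neural progenitors, and for its part in brown fat and blood stem cells. OTX2, a homeodomain protein needed for the anterior brain, binds DNA at promoters and at distal elements, and introns of long developmental genes often hold such distal elements. The mouse subpallium at embryonic stage E12.5 contains many such progenitors, lining the ventricle of the septum and of the ganglionic eminences.

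The locus described here is a 1.2 Mb window of chromosome 4, from 153000000 to 154200000 in build mm9, around the Prdm16 gene. Members were all deposited peaks whose centre fell in that window, in any of 8 libraries. The window held 44 of 26317 deposited peaks, and these merged into 34 sites of 22629 OTX2 sites in the genome, counting peaks that shared at least 1 bp as 1 site. The window was chosen on the number of OTX2 peaks themselves, after a 1 Mb bin of it had been found dense in OTX2 binding. The density of peaks in the window is therefore a description and no finding. The gene span used was the approximate one from 153.69 to 154.01 Mb, which makes up 26.7% of the window.

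All libraries came from wild-type CD-1 embryos at E12.5, as pools of tissue from several embryos. The tissue was basal ganglia and septum, so a peak cannot be assigned to the septum or to either eminence, or to progenitors or neurons. There were 3 OTX2 ChIP libraries, 3 input libraries of chromatin without antibody and 2 libraries precipitated with normal goat IgG, and the third experiment had no IgG library. No group differed from another in genotype or treatment, and the samples carry no expression data, so none of the peaks is tied to a level of Prdm16.

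The 3 OTX2 lists were unequal. They held 1848, 1298 and 22325 peaks for replicates 1, 2 and 3, with median widths of 191, 182 and 827 bp. The OTX2 and input lists of the third experiment have track names with the words AntibodyTest and score, which the other 6 lists lack. What these words stand for, and whether the lists were made with other settings, no source used here states. Replicate 3 therefore stands apart from replicates 1 and 2, and the main counts of regions are given with and without it. The lists give each peak a rank within its own library and no height, fold enrichment or p-value. A rank percentile is that rank as a percentage of the list, and low values are better.

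OTX2 peaks in the window lay almost wholly within Prdm16. Replicate 1 had 6 peaks in the window, replicate 2 had 4 and replicate 3 had 34. Inside the gene span were 6 of 6, 4 of 4 and 29 of 34 of them. None of the 5 input and IgG libraries had a peak in the window, and the nearest control peak on chromosome 4 lay 3672 kb away. The control lists are short, with averages over the genome of 0.0642 to 0.110 peaks in a stretch of 1.2 Mb, so an empty window of this size is what most places show in them and no low background can be read from it. The same average was 0.865 peaks in OTX2 replicate 1, 0.608 in replicate 2 and 10.5 in replicate 3.

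**Figure D1:**
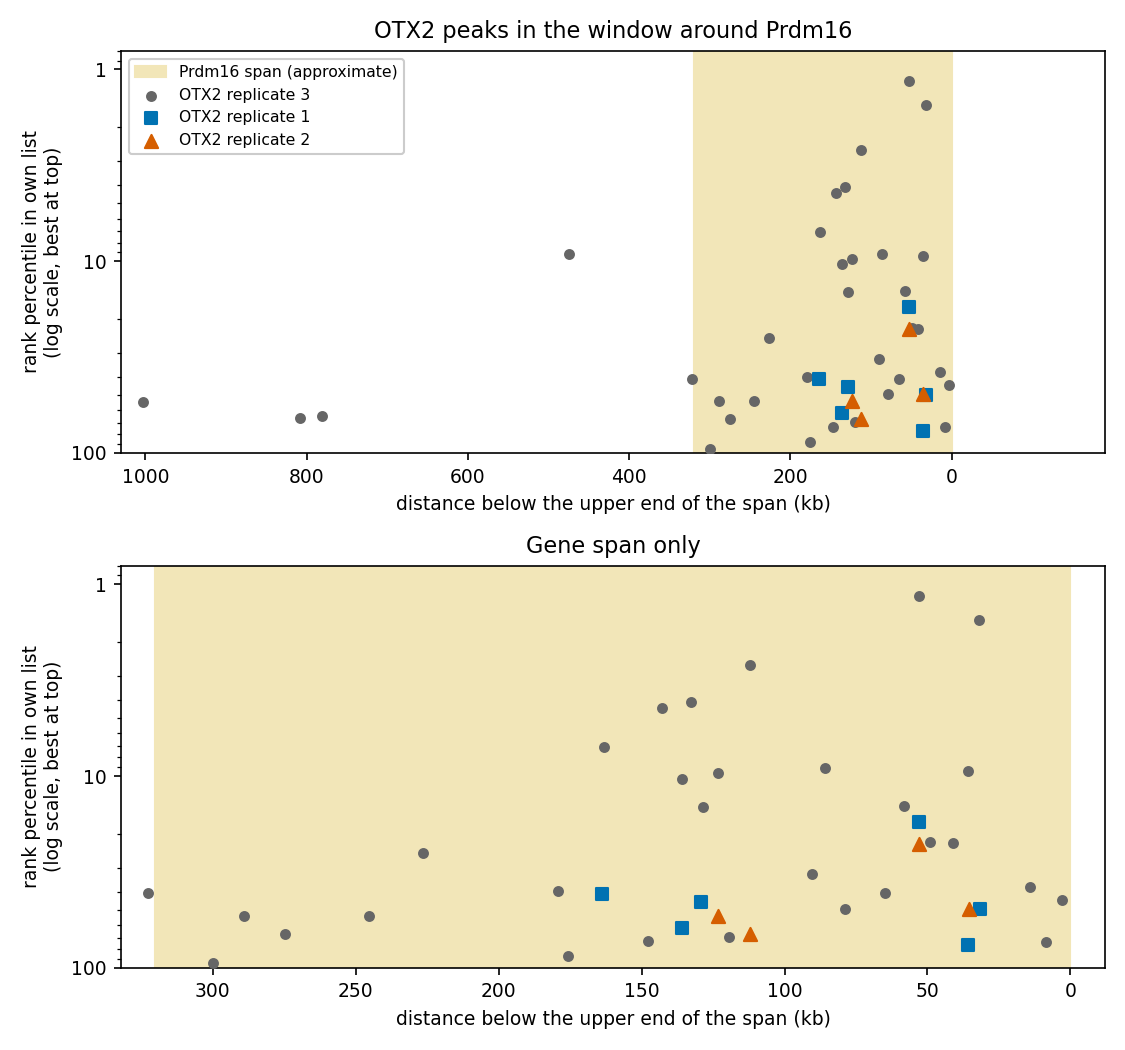
OTX2 peaks in the Prdm16 window by distance in kb below the upper end of the gene span (x axis) and rank percentile within the peak's own list (y axis, log scale, best at top), with 1 symbol per peak. The lower plot repeats the gene span only, and all 10 peaks of replicates 1 and 2 sit between 31.7 and 164 kb below the upper end.

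Of the 34 sites, 8 were OTX2 regions, meaning sites found in at least 2 of the 3 OTX2 libraries and free of control peaks. All 8 lay inside the gene span, where they made up 27.6% of the 29 sites, and none of the 5 sites outside it was a region. Over the genome 8.61% of merged OTX2 sites were regions. Regions found in all 3 libraries were 2 of the 29 sites in Prdm16, against 3.49% of all OTX2 sites, a count too small to set apart from that share. The other 6 regions comprised 4 shared by replicates 1 and 3 and 2 shared by replicates 2 and 3. Since every region of the locus had a replicate 3 peak, the count fell to 2 without replicate 3, to 4 without replicate 1 and to 6 without replicate 2. With replicates 1 and 2 alone, the window had 8 sites, all inside the span, and 25% of them were regions, against 32.4% of all sites of these libraries. The share of regions at Prdm16 was therefore above the genome share with replicate 3 and not without it. The window was chosen on OTX2 peaks, so this is a description and was not tested. The genome share with replicate 3 also depends on the many low-ranked peaks of that list. Set against replicate 3 peaks of like rank, as described below, the 8 regions inside stood beside a sum of 6.24.

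Every peak of the shorter lists was matched in the long one. All 6 replicate 1 peaks and all 4 replicate 2 peaks of Prdm16 overlapped a replicate 3 peak, where the shares over all peaks were 87.9% for replicate 1 and 92.1% for replicate 2. Overlap between the shorter lists themselves was 2 of 6 replicate 1 peaks, against 43% over the genome. The counts in Prdm16 are too small to set apart from these shares, and they were not tested.

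The best-ranked site of the locus was the same one in all 3 libraries. It spanned 153956495 to 153957665 on chromosome 4, about 52.9 kb below the upper end of the gene span, and was ranked 322 in replicate 1, 293 in replicate 2 and 256 in replicate 3. These ranks correspond to rank percentiles of 17.4, 22.6 and 1.15. Its peaks were 315, 238 and 1171 bp wide, and the centres of the replicate 1 and replicate 2 peaks lay 95.5 bp apart. By its mean percentile it took place 229 among the 789 regions of the genome found in all 3 libraries. The best-ranked site of Prdm16 was thus in the better part of these regions, and not among the very first.

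The second site present in all 3 libraries lay nearer to the upper end, 35.7 kb below it, from 153973672 to 153974853. It was ranked 1413, 637 and 2099 in replicates 1, 2 and 3, and took place 705 of 789. Its replicate 1 and 2 peaks were 174 and 179 bp wide with centres 25.5 bp apart. In replicate 1 this site was the last-ranked of the 6 peaks in the gene, while in replicate 2 it was the next after the best site. Only 2.69 kb further on, a region from 153977540 to 153978847 was ranked 917 in replicate 1 and 344 in replicate 3 and had no peak in replicate 2. These 3 regions, between 31.8 and 52.9 kb below the upper end, formed the group nearest to that end.

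A second group of 5 regions lay deeper in the gene, between 112 and 163 kb below the upper end. From 153845605 to 153848412 a replicate 3 peak of 2808 bp, the widest of the locus and ranked 1572, held a replicate 1 peak of 150 bp ranked 759. The region from 153873732 to 153874690 was ranked 1148 in replicate 1 and 2306 in replicate 3. The next, from 153880583 to 153882182, was ranked 842 in replicate 1 and 3236 in replicate 3. These 3 had no peak in replicate 2.

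The remaining regions of that group had no peak in replicate 1. One spanned 153885853 to 153887407 and was ranked 699 in replicate 2 and 2164 in replicate 3. The other spanned 153897375 to 153898433 and was ranked 867 in replicate 2 and 587 in replicate 3. In this group, therefore, the peaks of replicates 1 and 2 fell on different sites, and each of these sites was a peak in replicate 3. Over the genome 43% of replicate 1 peaks were overlapped by a replicate 2 peak, and the sites here are too few to set apart from that share. A stretch of 58.1 kb without any region separated the groups, and the other distances between neighbouring regions ranged down to 2.69 kb.

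The order of the sites differed between libraries. In replicate 3 the regions came in at ranks from 256 to 3236, with a median of 1836, or a percentile of 8.22, against 4.98 for all OTX2 regions with a replicate 3 peak. In replicate 1 the median percentile of the peaks in Prdm16 was 47.6, beside 46.3 for all regions, and in replicate 2 it was 51.5 beside 47.5. The Prdm16 regions were thus of middling rank among OTX2 regions in replicates 1 and 2 and ranked behind the median region in replicate 3.

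Narrow peaks mostly sat near the middle of the wide replicate 3 peak at the same site. The distance between centres was between 2.5 and 851 bp over 10 such pairs, with a median of 95 bp and 6 of 10 pairs under 100 bp. Over all regions the median was 114 bp (2752 pairs). The largest distances in Prdm16 were 851 bp at the widest peak, where the replicate 1 peak lay 19.7% along the replicate 3 peak, and 446.5 bp at the region starting at 153880583, where it lay 22.1% along. At both places the replicate 1 peak sat toward the lower coordinate of the replicate 3 peak, the side away from the upper end of the gene span.

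The remaining 26 sites had a replicate 3 peak only, 21 of them inside the gene span. The 3 best-ranked of these inside lay from 153876735 to 153877882 (rank 913), from 153866584 to 153867801 (rank 982) and from 153923750 to 153924873 (rank 2037). The first 2 fell between regions of the deeper group, and the third in the stretch that separates the groups. Among replicate 3 peaks of like rank, meaning the 100 ranks on each side, 78.0%, 72% and 29.5% overlapped a peak of replicate 1 or 2. A place ranked 913 or 982 without such an overlap was thus in the minority for its rank.

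Peaks of the window shared with the shorter lists were among the better-ranked ones of replicate 3. The better brackets of rank held few window peaks, so their shares cannot be set apart from those of the genome and were not tested. Of replicate 3 peaks ranked 1 to 1000, 3 of 5 in the window were overlapped in replicate 1 or 2, against 89.9% of all such peaks. From there to rank 2500 the window had 4 of 6, against 40.1%, and on to rank 5000 it had 1 of 3, against 11.3%. Beyond rank 5000 it had 0 of 20, against 1.08%. Adding up the shares among peaks of like rank gave 6.53 of the 34 window peaks, and 8 were observed. All 8 of these were inside the gene span, where the same sum was 6.24.

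Within Prdm16 the better peaks were concentrated in 1 stretch. From the first to the last region, 153845605 to 153978847, the stretch measured 133 kb, or 41.6% of the gene span, and held 19 of the 29 sites. Its replicate 3 peaks had a median rank of 2306 (percentile 10.3) and a median width of 1148 bp. The other 10 sites in the span had a median rank of 11956 (percentile 53.6) and a median width of 779 bp, and the best of them was ranked 5619. All 9 replicate 3 peaks of Prdm16 in the best-ranked 10% of the list lay in that stretch. The stretch was drawn around the regions, and regions are mostly well-ranked peaks, so these values describe it and test nothing.

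The stretch also held 11 sites seen in replicate 3 only, ranked between 913 and 16259 with a median of 5015. Neighbouring sites in it were separated by a median of 4.20 kb, from 2.04 to 20.7 kb. Below it the gene span held 7 sites over 156 kb, and above it 3 sites over 31.2 kb. Counted from the midpoint of the span, 21 sites and 7 of the 8 regions lay in the upper part and 8 sites in the lower part. The remaining region, the one with the widest peak, lay just below the midpoint.

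Prdm16 is on the minus strand in the RefSeq annotation of GRCm38, with a length of 321 kb there, so the upper end of the span is the side of its transcription start. Coordinates of that build were not carried over, and no mm9 gene model was used here, so exons, introns and the exact start could not be assigned to any peak. Relative to the approximate upper end, the nearest peak was a replicate 3 peak from 154006500 to 154007815 with a rank of 9841, centred 2.84 kb below it. The nearest peak of replicate 1 or 2 was centred 31.7 kb below it. No peak of any library lay between 154007815 and the upper border of the window, a distance of 192 kb. In the GRCm38 gene order the protein-coding neighbours on that side are Actrt2 and Ttc34, and on the other side Arhgef16, Megf6, Tprgl, Wrap73 and Trp73.

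Outside the gene span the window held 5 sites, each with a replicate 3 peak only. The best-ranked lay from 153534437 to 153535401, 475 kb below the upper end of the span, with rank 2048 and a width of 965 bp. Among replicate 3 peaks of like rank 27.0% overlapped a peak of replicate 1 or 2. The next was a peak from 153687042 to 153687818 with rank 9145, and then one from 153006762 to 153007345 with rank 12069. The last 2 were ranked 14395 and 14670. No gene was assigned to any of them.

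In replicate 3, peaks inside the span were better ranked in the middle of their distribution than those outside. Ranks ran from 256 to 21175 inside (29 peaks, median 5619, percentile 25.2) and from 2048 to 14670 outside (5 peaks, median 12069, percentile 54.1). The ranges overlapped wholly, since the peaks inside included both the best and the last of the window. The difference of the medians was -28.9 percentile points, the difference of the means was -13.3, and within the better-ranked 50% of the list the difference of the medians was -10.7. In the best-ranked 10% of the list were 9 peaks inside and 1 outside. Only replicate 3 had peaks on both sides, so the comparison rests on 1 library, has no replicate error and was not tested.

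Peaks inside the span were also somewhat wider at the median. The median peak of replicate 3 was 959 bp wide inside (490 to 2808 bp) and 777 bp outside (584 to 965 bp), a ratio of 1.23. Width and rank went together in the window as in the whole list, with a Spearman correlation over the 34 window peaks of -0.73, which is a description, since peaks of 1 library share their depth. Set against the median width of replicate 3 peaks of like rank, 12 of 29 peaks inside and 1 of 5 outside were wider, and the median ratio was 0.971 inside and 0.930 outside.

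**Figure D2:**
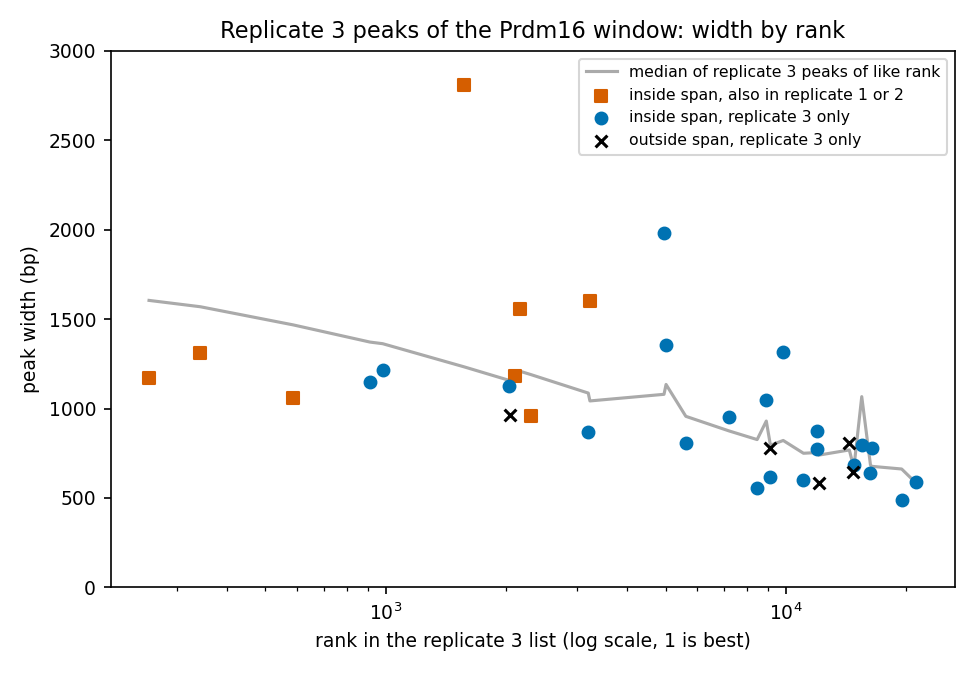
Width in bp (y axis) of the 34 replicate 3 peaks in the Prdm16 window by their rank in that list (x axis, log scale), with the median width of peaks of like rank as a grey line. The best-ranked site, ranked 256, lies below the line with 1171 bp, and the widest, ranked 1572, lies above it with 2808 bp.

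The best-ranked peaks of the locus were narrow for their rank. The peaks ranked 256, 344 and 587 were 1171, 1308 and 1059 bp wide, against medians of 1605, 1569 and 1468 bp at like rank. Of the 12 peaks inside that were wider than those of like rank, the 2 with the largest ratio were the peak of 2808 bp ranked 1572, which was 2.28 times the median at like rank, and one of 1984 bp ranked 4956, from 153959749 to 153961732, at 1.84 times. The second of these lay 2.08 kb from the best site of the gene and had no peak in replicate 1 or 2. Inside Prdm16 the peaks covered 1.15 kb in replicate 1, 0.753 kb in replicate 2 and 30.9 kb in replicate 3.

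Peak density inside the span was many times that outside it in replicate 3. The span held 90.6 replicate 3 peaks per Mb and the rest of the window 5.68 per Mb, a ratio of 15.95, while the genome average was 8.71 per Mb. Outside Prdm16 the window was thus below the genome average in replicate 3, which rests on 5 peaks of 1 library and was not tested. The density that led to the choice of the window lay in the gene. Replicate 1 had 18.8 peaks per Mb in the span, against a genome average of 0.721, and in both shorter lists the rest of the window held none. The nearest neighbour of a replicate 3 peak inside the span was 4.79 kb away at the median, against 22.9 kb over the genome and 26.5 kb for the 5 peaks outside.

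Windows of 320 kb, the length of the span, were counted across the genome to place that number. The fullest such window over Prdm16 held 30 replicate 3 peaks, and 1 non-overlapping window elsewhere held more, with 35. For OTX2 regions the fullest window over Prdm16 held 8, none elsewhere held more and 1 other held the same number. In replicate 1 the Prdm16 window held 6 peaks, where 6 other windows held more and 5 the same number. In replicate 2 it held 4 peaks, where 15 others held more and 16 the same number. With replicates 1 and 2 alone the fullest window over Prdm16 held 2 regions, and 30 other windows held more and 110 the same number. The locus was chosen by these same peaks, so its place among the windows is a description and supports nothing.

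Lists of equal length gave similar numbers for all 3 libraries. Among the best 1298 peaks of each list, the window held 5 peaks of replicate 1, 4 of replicate 2 and 5 of replicate 3, all inside Prdm16. They fell on 10 sites, of which 3 were in at least 2 libraries and 1 in all 3, the best-ranked site described above. The further replicate 3 peaks of the full list lay beyond rank 1298 by construction, since that list is much longer. The cut also removed replicate 3 peaks that overlapped peaks of replicate 1 or 2 in the full list. The share over the genome was not counted at equal length, so the 3 of 10 sites are a description.

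Beside the other 1 Mb bins dense in OTX2 regions, those of Prdm16 had the shortest distance from first to last. In the genome 9 bins of 1 Mb held at least 8 OTX2 regions, among them the bin of Prdm16 from 153000001 to 154000000. Its 8 regions lay within 133 kb, while those of the other 8 bins were spread over 409 to 885 kb, with a median of 673 kb. This distance is set by the outermost regions of each bin. In the count by 320 kb windows, 1 other window also held 8 regions. Their distance from first to last was not measured, so whether they were packed as closely is not known. The 10 peaks of replicates 1 and 2 in the Prdm16 bin lay within 132 kb, and those of the other bins were spread over 408 to 911 kb. Every region holds a peak of replicate 1 or 2, so these distances largely follow from those of the regions. The bins were also picked with replicate 3, so this is no check apart from it. With replicates 1 and 2 alone, the 2 regions of Prdm16 lay within 17.5 kb, a distance not measured in the other bins. The Prdm16 bin had 2 regions in all 3 libraries, or 25% of its regions, a share equalled by 1 of the other bins and exceeded by 7, which ranged up to 75%.

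The ranks of the Prdm16 bin were also behind most of these bins. Its best region was ranked 256 in replicate 3, and the best regions of the other 8 bins were ranked between 19 and 206. Its median region was ranked 1836, with 7 of the other bins better and 1 behind, over a range of 474 to 2192. The number of replicate 3 peaks in the bin, 32, was near the median of 33 of the others. With replicates 1 and 2 alone it held 2 regions, the same as 1 other bin, and the other 7 held 3 to 9. The bins were picked by the number of regions, so no test of these differences was made.

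**Figure D3:**
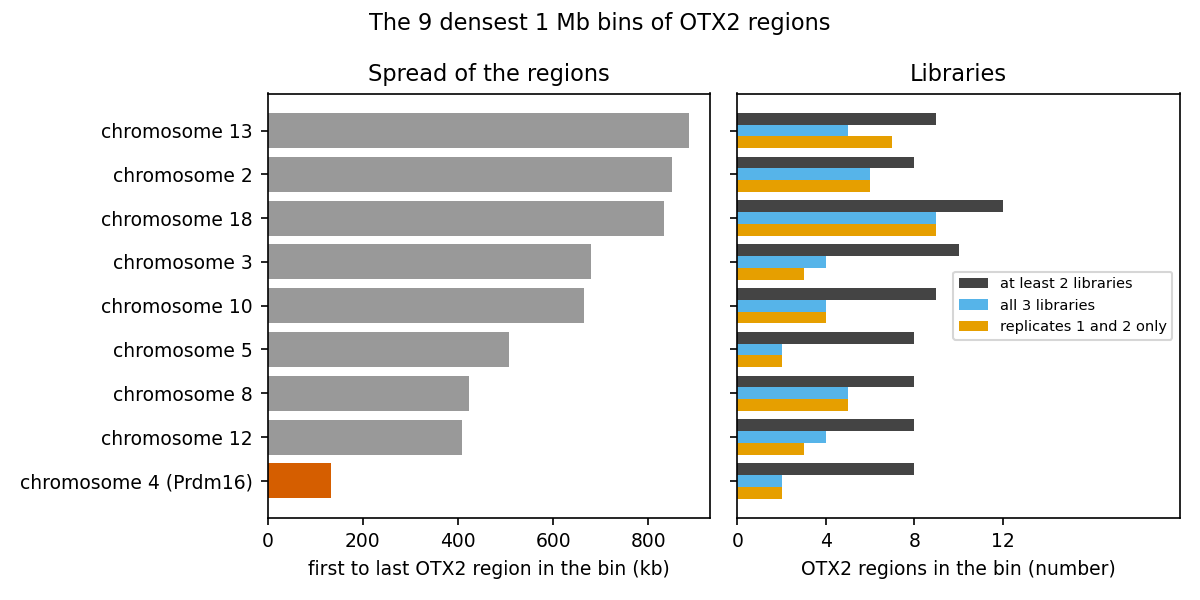
The 9 bins of 1 Mb with at least 8 OTX2 regions, by the distance in kb from their first to their last region (left) and the number of regions in at least 2 libraries, in all 3 and with replicates 1 and 2 only (right), with 1 row per bin. The Prdm16 bin has the shortest spread, 133 kb, and 2 regions in all 3 libraries.

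The borders of the window and of the span decided few members. The peak just outside the lower end of the span was centred 2.57 kb from it (rank 9145), and the first inside was centred 20.2 kb from it (rank 21175). At the upper end the last peak inside was centred 2.84 kb from the border. The lowest peak of the window lay 7.05 kb above its lower border, and the next one below the border was 73.3 kb away (rank 5606). Above the window the nearest replicate 3 peak was centred 6.39 kb beyond the border (rank 19006).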

How the data were processed

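The data were 1 peak list per library, deposited by the authors in BED form with a chromosome, start, end and rank for each peak. The ranks are whole numbers from 1 to the length of the list. BWA, MACS 1.4 and build mm9 appear in the submitters' processing notes, with no role stated. Which control and threshold each list used, and what was ranked, no source used here states. Read depth is unknown.

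Groups and replicate numbers came from the sample titles. Peaks were merged, counted and compared with numpy 2.4.6 and scipy 1.17.1 under Python 3.11.15, with 1-based starts. The merging was tested on lists with planted sites, and 3 overlap counts between replicates were identical in bedtools 2.31.1. A site was a chain of OTX2 peaks sharing at least 1 bp, and a region had at least 2 OTX2 libraries and no control peak. Sites inside and outside the gene span were separated by their centres. Genome averages use the distance from the lowest to the highest position in any list, summed over the nuclear chromosomes. Windows of 320 kb started at each peak or region in turn, and the fullest that did not overlap were counted.

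The tests planned over the 3 libraries for rank and width could not be run, because only replicate 3 had peaks on both sides of the span border. Replicates are separate experiments on pooled embryos, and no label ties them to different litters. Sites named are all those with a peak of replicate 1 or 2 and the 3 best-ranked others on each side of the border. The widest unshared peak and the peaks at the borders were chosen after their values were seen. The window, the gene span and the counts were chosen with earlier results of these data known. Gene names, strand and length came from RefSeq for GRCm38, and no coordinate of that build was used. Peak sequences are not printed, since no mm9 genome was used here.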

Additional observations from a re-analysis of the deposited data

How the results depend on the processing

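Region counts in the window and inside the gene span were each 8 and moved with the libraries and thresholds used. Leaving out 1 replicate at a time gave between 2 and 6 regions, with 2 when replicate 3 was left out. The better-ranked 50% of each list gave 5, 200 bp windows at peak centres gave 5, and lists cut to the shortest, an alternative chosen after seeing the data, gave 3. Sites in all 3 libraries numbered 2, and sites in any 1 library numbered 34 in the window and 29 inside the span. Counts stayed at 8 with an overlap of 50% of the shorter peak, with control peaks kept, and with the span widened or narrowed by 10 kb. The difference in rank percentile between inside and outside, -28.9, was -10.7 in the better-ranked 50% and -13.3 with means. The log2 ratio of widths, 0.30, was 0.49 with means. Also added after seeing the data, regions of replicates 1 and 2 alone put 30 other windows of 320 kb above Prdm16, against 0 with all 3 libraries. The cause of these shifts was not tested. No value could be had for rank or width without replicate 3 or for regions only, since no peak outside the span then remained. No paired analysis was possible because no test compared groups of libraries. Without read depth, sites missing from the shorter lists are not shown to be unbound.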
